A study of Homo sapiens with 42 samples.

Results

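This is an account of the total poly(A) RNA of leukemia cells with and without everolimus, an inhibitor of the kinase complex mTORC1. The cells were kept in stromal medium without a FLT3 inhibitor. The members of this comparison are 6 of the 42 libraries of the series, taken by their labels. They are the input RNA (RNA of the whole lysate, before any polysome fraction was taken) of 3 everolimus samples and of 3 vehicle samples. All 6 came from MOLM-13, an established human acute myeloid leukemia (AML) line whose FLT3 receptor is kept active by an internal tandem duplication (FLT3-ITD), with the genotype given as WT. Both groups were kept for 12 hours in hBMSC-CM, which mixes equal parts of RPMI and of medium taken from HS-5 bone marrow stromal cells, so the soluble stromal factors were common to both. The everolimus group got 10 nM everolimus and the vehicle group DMSO alone, and cells of every group were briefly exposed to cycloheximide before harvest, since the same lysates fed the polysome gradients. For comparison, values are also given from the heavy polysome RNA of these 2 groups and from the groups with 3 nM quizartinib, a FLT3 inhibitor, alone or with 10 nM everolimus (combo), in the same medium. The comparison asks which messages depend on mTORC1 while FLT3 signaling is intact, the counterpart of the study's question on adding everolimus to a FLT3 inhibitor. The study calls its replicates biological, but all come from 1 cell line and the labels do not name separate cultures. The p-values of genes below therefore measure a spread between samples that may be technical. In the main fit that spread is pooled over all 42 libraries in 14 groups, so it is not that of these 6 alone.

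mTORC1 is a kinase complex built around mTOR and its partner RPTOR, which senses growth factors and amino acids and drives cell growth. Everolimus binds the small protein FKBP12, the product of FKBP1A, and the pair blocks mTORC1. Active mTORC1 is known to promote translation through the 4E-BP proteins and S6 kinase, to activate the SREBP factors that switch on cholesterol and fatty acid enzymes, and to raise ATF4, a factor for amino acid and serine genes, while it holds back autophagy and the lysosomal factor TFEB. A feedback from S6 kinase restrains PI3K and AKT, and AKT in turn keeps the FOXO factors out of the nucleus.

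Total counts were 26.2 M to 36.0 M per library in these 6 (M, 1e6 counts), against 19.4 M to 38.8 M over all 42, and 18546 to 21130 genes had at least 1 count. All 13 AML markers listed, which mark myeloid leukemia cells but not this line, were kept after the filter on low counts, whereas 20 of 29 stromal markers stayed under 1 CPM (counts per 1e6 counts) in all 6 libraries, 11 of them at 0. Some libraries stood apart. Vehicle replicate 3 had the fewest genes with a count (18546) and a summed level of AML markers of 1549 CPM, against 2133 to 2243 CPM in the other 5, and vehicle replicate 1 had 7.05% of its counts in mitochondrially encoded genes, against 3.17% to 4.25% in the others. Summed stromal marker levels were 257 to 276 CPM with everolimus and 227 to 252 CPM with vehicle, and summed AML marker levels 2213 to 2243 CPM and 1549 to 2173 CPM (exact permutation p = 0.1 for each, the smallest that 3 against 3 allows, adjusted over 8 library measures 0.4). Most of the stromal sum came from IGFBP7 (154 to 171 CPM with everolimus, 138 to 147 CPM with vehicle) and ENG (80.4 to 87.3 CPM and 74.7 to 86.0 CPM). The part of these library differences in the results below was not tested.

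The spread between replicates was unlike in the 2 groups. The common biological coefficient of variation, which measures how much a typical gene varies between libraries beyond counting noise, was 0.0716 over the 3 everolimus libraries and 0.296 over the 3 vehicle libraries. Among the 7 input groups the everolimus group had the lowest value and this vehicle group the highest. Pairs of everolimus libraries still differed by more than counting noise, with a chi-square per gene of 4.96 to 7.51 where noise alone gives 1, against 30.2 to 224 in the other 6 groups. Libraries of other groups that share a replicate number deviated together, with correlations of 0.41 to 0.62 between quizartinib and vehicle, but the everolimus libraries deviated with none of the 18 other input libraries (correlations across genes of -0.059 to 0.066). A batch of the everolimus samples and the drug cannot be told apart.

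**Figure D1:**
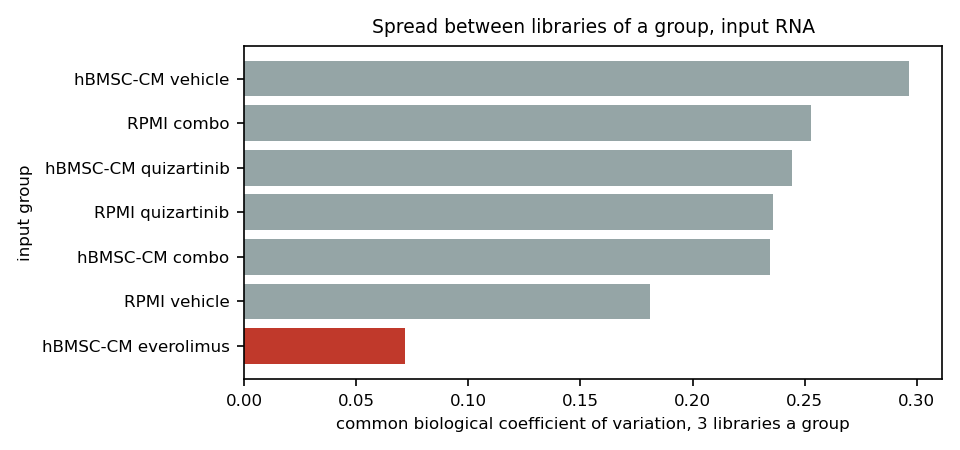
Common biological coefficient of variation between the 3 libraries of each input group (horizontal axis, bars from 0). The everolimus group, in red, is at 0.0716, and the other groups, in grey, run from 0.181 to 0.296.

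In the main fit few genes differed between the 2 groups past the threshold, while a fit on the input libraries alone called 476. Of 12939 genes tested, 53 (0.41%) had an adjusted p under 0.05, 29 higher (0.224%) and 24 lower (0.185%), in edgeR's quasi-likelihood test fitted on all 42 libraries with Benjamini-Hochberg adjustment, and every adjusted p below is from this fit unless said otherwise. All 53 had library values that did not overlap between the groups, as 14.2% of all genes did upward and 13.5% downward, and the 53 had been chosen by the test on the same values. The 24 genes that fell included 8 of the cholesterol synthesis list, 3 fatty acid desaturases and 3 genes of the amino acid response, and those that rose with the lowest adjusted p were FBXO32, FRAT1 and KLHL24. The count depended on single libraries: it was 15, 12 and 15 without everolimus replicate 1, 2 and 3, and 21, 76 and 16 without vehicle replicate 1, 2 and 3. When the 3 everolimus libraries were summed and treated as 1 sample, which is then assumed to vary like the other groups, 2 genes were called, FBXO32 and FRAT1 (edgeR adjusted p = 0.0441 for each). In each of these fits all 53 genes kept their direction. Since their library values did not overlap, leaving out or summing libraries could hardly reverse it, so this is no separate support.

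Of the lists with at least 15 measured members, cholesterol synthesis had the lowest median. It is the pathway from acetyl-CoA through mevalonate and squalene to cholesterol, and its enzymes are known targets of SREBP2. Of 26 measured members all 26 had a negative log2 fold change, with a median of -1.03 against -0.015 over all 12939 genes. Past the threshold 8 fell, where 0.185% of all genes did so, and none rose. Library values of 21 members lay wholly below those of the vehicle, where 13.5% of all genes did so. Without vehicle replicate 3 this held for 22 members, where 23.2% of all genes did so, and the median was -0.88.

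The first steps of the pathway are shared by all isoprenoids. ACAT2 (ENSG00000120437, chromosome 6, 159762045 to 159779112, plus strand, GRCh38), the cytosolic thiolase that joins 2 acetyl-CoA, was at 47.9, 48.5 and 46.9 CPM in everolimus replicates 1 to 3 and at 100.4, 104 and 128 CPM in vehicle replicates 1 to 3. Its log2 fold change was -1.21 with SE 0.16 and an adjusted p of 6.12e-05, the lowest adjusted p of the comparison. HMGCS1 (ENSG00000112972, chromosome 5, 43287470 to 43313512, minus strand), the HMG-CoA synthase of the next step, was at 16.2, 16.4 and 14.8 CPM against 47.3, 57.2 and 58.1 CPM. For both genes every vehicle library was more than 2-fold above every everolimus library, and the log2 fold change of HMGCS1 was -1.78 with SE 0.27 and an adjusted p of 0.000407. MVK, mevalonate kinase, was at 14.7, 12.6 and 11.7 CPM against 20.9, 20.9 and 38.1 CPM, with vehicle replicate 3 well above the other two, and its log2 fold change was -1.04 (SE 0.24, adjusted p = 0.0410). IDI1 (ENSG00000067064, chromosome 10, 1039152 to 1049119, minus strand), which makes the reactive isoprenoid unit dimethylallyl diphosphate, was at 22.6, 22.4 and 21.9 CPM against 40.8, 51.4 and 70.8 CPM, a log2 fold change of -1.28 (SE 0.24, adjusted p = 0.00497).

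The later steps, from squalene to sterols, showed the same direction. SQLE, squalene epoxidase and a slow step of the pathway, was at 13.2, 13.1 and 11.7 CPM against 44.2, 46.1 and 29 CPM. Vehicle replicate 3 was the lowest of its group and still more than 2-fold above every everolimus library, and the log2 fold change was -1.65 with SE 0.28 and an adjusted p of 0.00221. LSS, the cyclase that makes lanosterol, was at 13.2, 10.5 and 13.1 CPM against 26.1, 32 and 40.6 CPM, with the highest vehicle value in replicate 3 and a log2 fold change of -1.43 (SE 0.33, adjusted p = 0.0389). MSMO1 (ENSG00000052802, chromosome 4, 165327667 to 165343164, plus strand), a sterol methyl oxidase, was at 7.04, 10.3 and 9.8 CPM against 21.8, 21.4 and 22.4 CPM. The 3 vehicle libraries of MSMO1 were nearly equal, everolimus replicate 1 was the lowest of all, and the log2 fold change was -1.27 with SE 0.22 and an adjusted p of 0.00265. NSDHL, which acts right after it, was at 18.4, 18 and 18.7 CPM against 31.1, 36.1 and 32.7 CPM, a log2 fold change of -0.86 (SE 0.17, adjusted p = 0.0131). MVD, a decarboxylase between MVK and IDI1, was among the genes just outside the threshold with an adjusted p of 0.0512, and KDELR2, a retrieval receptor of the endoplasmic reticulum, was the last inside with 0.0494. SREBF2, which encodes the factor SREBP2, had 111 ± 4.61 CPM under everolimus against 147 ± 13.9 CPM under vehicle (mean ± SD, n = 3 each, as for all such values below) and a log2 fold change of -0.40 (SE 0.28, adjusted p = 0.767).

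The sequences of 2 promoters of the pathway are shown because the factor NF-Y, which is known to work with SREBP at sterol genes, reads the CCAAT box. They run from 250 bases before to 50 bases after the RefSeq start site (GRCh38.p14), are written 5′ to 3′ on the strand of the gene, and capitals mark the matches to CCAAT on either strand, so that ATTGG is the box on the other strand. The window of HMGCS1 is chr5:43313363-43313662, minus strand, that of MSMO1 chr4:165327419-165327718, plus strand.
HMGCS1: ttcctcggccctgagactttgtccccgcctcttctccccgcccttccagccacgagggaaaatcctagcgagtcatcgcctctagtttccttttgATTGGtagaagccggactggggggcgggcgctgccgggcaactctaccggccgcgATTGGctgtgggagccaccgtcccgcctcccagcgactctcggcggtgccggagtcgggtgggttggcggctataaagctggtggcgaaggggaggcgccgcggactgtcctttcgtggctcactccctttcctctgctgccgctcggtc
MSMO1: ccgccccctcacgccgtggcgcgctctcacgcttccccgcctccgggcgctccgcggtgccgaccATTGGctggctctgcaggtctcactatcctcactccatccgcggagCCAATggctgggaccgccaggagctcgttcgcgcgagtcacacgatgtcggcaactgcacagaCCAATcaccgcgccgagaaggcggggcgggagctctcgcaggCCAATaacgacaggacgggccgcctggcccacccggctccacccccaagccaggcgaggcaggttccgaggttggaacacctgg
HMGCS1 held 2 and MSMO1 held 4 matches. Of the 26 measured members of the list 20 had a window, and 16 of these (80%) held a CCAAT box, against 3320 of the 8943 genes tested that had one (37.1%). The sterol element TCACNCCAC was found in 1 of the 20 (5%) against 1.07% of all windows, and the E-box CACGTG, which SREBP factors can also read, in 4 (20%) against 10.5%. Of the 24 genes that fell past the threshold 18 had a window, of which 11 (61.1%) held a CCAAT box, and of the 29 that rose 24 had one, of which 9 (37.5%) did. These counts describe letters in a window, and no binding was measured. The share of the cholesterol list does not depend on the drug.

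Of 22 measured members of the fatty acid list 3 fell past the threshold (0.185% of all genes did) and none rose. A negative log2 fold change was found in 18, and the median was -0.30. The 3 that fell are desaturases, the enzymes that put double bonds into fatty acids. SCD (ENSG00000099194, chromosome 10, 100347233 to 100364826, plus strand), which makes monounsaturated fatty acids, was at 69.6, 67.5 and 68.2 CPM with everolimus and at 224, 228 and 163 CPM with vehicle. The everolimus libraries were nearly equal, vehicle replicate 3 was the lowest of its group and still more than 2-fold higher, and the log2 fold change was -1.58 with SE 0.26 and an adjusted p of 0.00137. FADS2, which starts the polyunsaturated series, was at 8.29, 7.32 and 9.46 CPM against 37.1, 34.2 and 28.4 CPM, a log2 fold change of -1.99 (SE 0.40, adjusted p = 0.0147). FADS1, its partner in the same series, was at 6.96, 6.01 and 7.23 CPM against 20.6, 16.1 and 15.5 CPM, a log2 fold change of -1.37 (SE 0.33, adjusted p = 0.0466). FADS1 and FADS2 lie side by side on chromosome 11 on opposite strands with overlapping exons in GENCODE v44, and since the counting is not stated to use strand, reads of the shared stretch cannot be told apart. FASN, the fatty acid synthase, did not pass, with 191 ± 19.7 CPM under everolimus against 294 ± 49 CPM under vehicle and a log2 fold change of -0.62 (SE 0.32, adjusted p = 0.608), and SREBF1, which encodes SREBP1, had 67.1 ± 4.32 CPM under everolimus against 96.6 ± 15.5 CPM under vehicle and -0.53 (SE 0.21, adjusted p = 0.390).

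The amino acid response is the program that ATF4 turns on when amino acids are scarce or the endoplasmic reticulum is stressed. Of 26 measured members 3 fell past the threshold (0.185% of all genes did) and none rose. A negative log2 fold change was found in 22, and the median was -0.56. Library values of 14 members lay wholly below those of the vehicle (13.5% of all genes did so), and without vehicle replicate 3 those of 15 did (23.2% of all genes). CHAC1, an enzyme that breaks down glutathione and is induced by ATF4, had the largest fall of the genes called, from 2.68, 2.87 and 5.44 CPM with vehicle to 0.0261, 0.427 and 0.412 CPM with everolimus. These levels rest on 1, 16 and 13 raw counts under everolimus and 92, 90 and 207 under vehicle. Its log2 fold change was -3.67 with SE 0.88 and an adjusted p of 0.0475, the widest error of the genes called. STC2, a secreted glycoprotein induced by stress, was at 3.02, 2.86 and 2.67 CPM against 10.2, 9.41 and 15.1 CPM, a log2 fold change of -2.02 (SE 0.45, adjusted p = 0.0270). BCAT1, which transfers the amino group of branched-chain amino acids, was at 45.5, 43.4 and 48.1 CPM against 82.8, 68.8 and 75.8 CPM, a log2 fold change of -0.73 (SE 0.16, adjusted p = 0.0270). DDIT4, an inhibitor of mTORC1 that ATF4 induces, did not pass, with 87.8 ± 5.93 CPM under everolimus against 171 ± 36 CPM under vehicle and a log2 fold change of -0.96 (SE 0.24, adjusted p = 0.0611), and its library values did not overlap. ATF4 itself was at 329, 362 and 337 CPM against 378, 342 and 837 CPM, groups that overlapped, and its log2 fold change was -0.60 (SE 0.31, adjusted p = 0.617). ASNS, the asparagine synthetase often used as a readout of ATF4, was below the filter, with at most 25 raw counts in any of the 42 libraries.

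The promoter of CHAC1 is shown because it holds a match to TGATGNAAN, the form of the amino acid response element read by ATF4 and its partners. The window is chr15:40953221-40953520, plus strand (GRCh38.p14, same limits as above), and capitals mark the match, which lies on the other strand.
CHAC1: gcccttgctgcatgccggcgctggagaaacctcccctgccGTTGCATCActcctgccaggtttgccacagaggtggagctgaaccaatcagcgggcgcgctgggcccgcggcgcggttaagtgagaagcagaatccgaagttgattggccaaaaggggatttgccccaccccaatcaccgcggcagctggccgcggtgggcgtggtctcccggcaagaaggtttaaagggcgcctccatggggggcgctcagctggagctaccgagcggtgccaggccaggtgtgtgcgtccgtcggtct
Of the genes that fell past the threshold, 2 of the 18 with a window (11.1%) held such a match, CHAC1 and BCAT1. Of those that rose, 1 of the 24 with a window (4.17%) did, THAP8. In the ATF4 list it was 3 of 21 (14.3%), and among all genes tested that had a window 139 of 8943 (1.55%). The share of the ATF4 list does not depend on the drug.

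Serine and one-carbon metabolism makes serine and the methyl units for nucleotides. Of its 17 measured members 1 fell past the threshold (0.185% of all genes did), 14 had a negative log2 fold change and the median was -0.24. PSAT1 (ENSG00000135069, chromosome 9, 78297125 to 78330093, plus strand), an aminotransferase of serine synthesis, was at 25.4, 25 and 23.4 CPM with everolimus and at 74.4, 61.4 and 54.5 CPM with vehicle, a log2 fold change of -1.36 with SE 0.29 and an adjusted p of 0.0236. ALDH1L2, a mitochondrial folate enzyme, had 1.58 ± 0.293 CPM under everolimus against 5.96 ± 0.692 CPM under vehicle and a log2 fold change of -1.92 (SE 0.60, adjusted p = 0.177), and MTHFD2, the mitochondrial methylene folate dehydrogenase, had 70.0 ± 1.11 CPM under everolimus against 99.7 ± 25.1 CPM under vehicle and -0.51 (SE 0.21, adjusted p = 0.401). Neither passed, although library values of both lay wholly below those of the vehicle (13.5% of all genes did so).

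Other genes fell outside these lists. ADM2 (ENSG00000128165, chromosome 22, 50481543 to 50486440, plus strand), a peptide hormone of the adrenomedullin family, went from 6.33, 5.55 and 9.06 CPM with vehicle to 1.56, 1.04 and 0.539 CPM with everolimus, on 60, 39 and 17 raw counts under everolimus and 217, 174 and 345 under vehicle. Its log2 fold change was -2.72 with SE 0.41 and an adjusted p of 0.000378. Its exons overlap SBF1 on the other strand, so its reads are uncertain in the same way as those of FADS1. The same holds for ACAT2, which overlaps TCP1 and SOD2, and for MVK, which overlaps MMAB, both on the other strand, and FADS2 also overlaps FEN1 on its own strand. HMGCS1, IDI1, LSS, BCAT1, BMF, CCDC86, FKBP4, HBP1, YPEL3 and C6orf223 also share exon positions with an annotated gene on the other strand. C6orf223, annotated as a long noncoding RNA, was at 1.09, 0.882 and 0.698 CPM against 2.25, 5.29 and 5.93 CPM, with vehicle replicate 1 closest to the everolimus libraries and a log2 fold change of -2.32 (SE 0.52, adjusted p = 0.0305). EIF4EBP1, the gene of 4E-BP1, a repressor of translation that mTORC1 phosphorylates, was at 63.1, 65.6 and 63 CPM against 112, 83.1 and 161 CPM. The vehicle libraries of EIF4EBP1 spread nearly 2-fold, and its log2 fold change was -0.89 (SE 0.21, adjusted p = 0.0452). FKBP4, a co-chaperone of steroid receptors, was at 150.4, 141 and 137 CPM against 262, 248 and 242 CPM, a log2 fold change of -0.81 (SE 0.15, adjusted p = 0.00627), and CCDC86, a nucleolar protein, at 43.6, 45.6 and 49.8 CPM against 88.8, 90.6 and 73 CPM, a log2 fold change of -0.86 (SE 0.20, adjusted p = 0.0407).

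**Figure D2:**
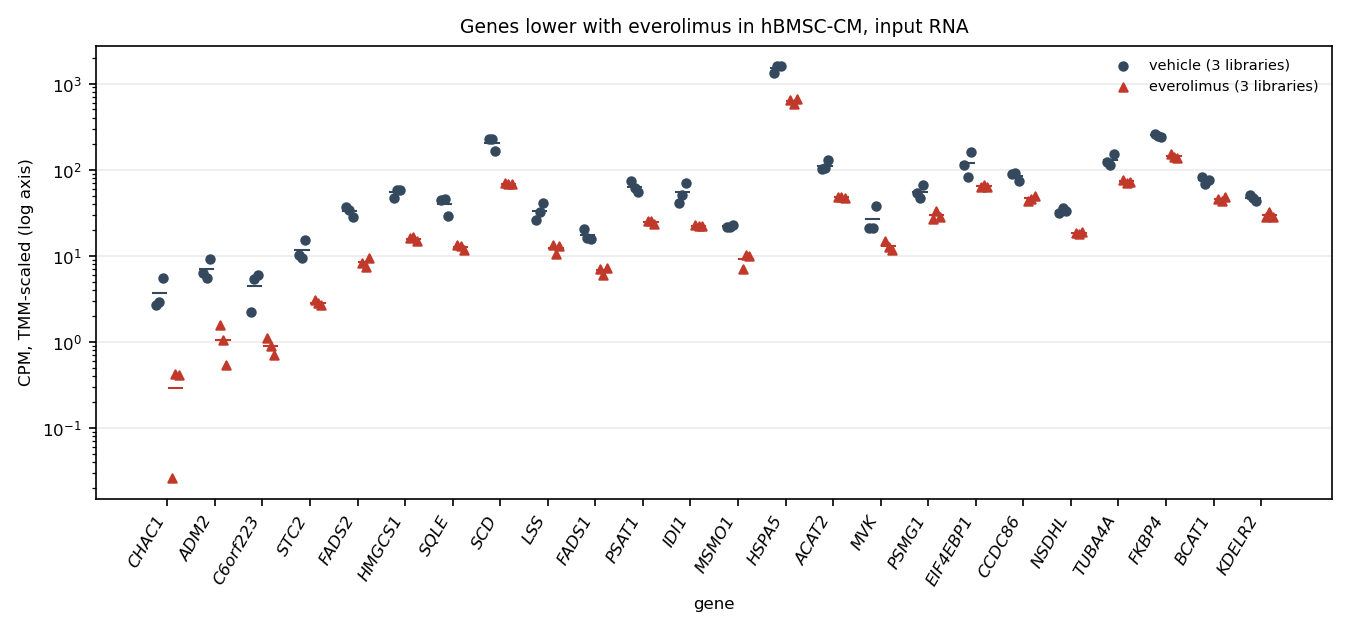
TMM-scaled CPM (vertical log axis) of the 24 genes that fell past the threshold, ordered by log2 fold change, with 3 vehicle libraries as grey circles, 3 everolimus libraries as red triangles and a line at each mean. For every gene the triangles lie below the circles, from CHAC1 at a log2 fold change of -3.67 to KDELR2 at -0.66.

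Few chaperones passed the test. In the list of the endoplasmic reticulum folding and unfolded protein response, 1 of 32 measured members was called, against 0.41% of all genes. A negative log2 fold change was found in 27 of them, and the median was -0.40. HSPA5 (ENSG00000044574, chromosome 9, 125234853 to 125241382, minus strand), the main chaperone of the endoplasmic reticulum, also called BiP, was at 649, 583 and 667 CPM with everolimus and at 1312, 1594 and 1585 CPM with vehicle. The groups were far apart, and the log2 fold change was -1.24 with SE 0.28 and an adjusted p of 0.0313. The call was lost in each of the 6 fits with 1 library left out, where the log2 fold change stayed between -1.29 and -1.16. Calls of CCDC86, FADS1, KDELR2, LSS, RGS16 and UBALD2 were also lost in all 6 of these fits. MANF, a secreted protein of the stressed endoplasmic reticulum, had 109 ± 5.89 CPM under everolimus against 272 ± 107 CPM under vehicle and a log2 fold change of -1.32 (SE 0.35, adjusted p = 0.0852), and SDF2L1, a partner of HSPA5, had 53.9 ± 4.9 CPM under everolimus against 127 ± 58.5 CPM under vehicle and -1.23 (SE 0.33, adjusted p = 0.0795). In the list of cytosolic and mitochondrial heat shock proteins none of 20 was called, 19 had a negative log2 fold change, the median was -0.53, and values of 16 lay wholly below those of the vehicle (13.5% of all genes did so). AHSA1, an activator of HSP90, had the smallest p of that list, with 126 ± 4.0 CPM under everolimus against 204 ± 16.7 CPM under vehicle and a log2 fold change of -0.69 (SE 0.18, adjusted p = 0.0815).

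In 4 larger housekeeping lists no member was called, and the medians were below 0. The median log2 fold change was -0.37 for 34 proteasome subunits, of which 34 were negative and 20 lay wholly below the vehicle. It was -0.35 for 63 factors of ribosome biogenesis, of which 34 lay wholly below, -0.32 for 50 genes of DNA replication (24 below) and -0.28 for 25 genes of nucleotide synthesis (15 below), where 13.5% of all genes did so. PSMD11, a subunit of the proteasome lid, had the smallest p of the proteasome list, with 60.4 ± 0.835 CPM under everolimus against 92.1 ± 15.9 CPM under vehicle and a log2 fold change of -0.61 (SE 0.16, adjusted p = 0.0784). Without vehicle replicate 3 the median of the proteasome was -0.28. Genes of mitosis, in contrast, had a median of -0.035 over 39 members.

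The values of mitochondrial and ribosomal genes depended on single vehicle libraries. The 74 nuclear genes of oxidative phosphorylation (OXPHOS) had a median log2 fold change of -0.36, 72 were negative, 27 lay wholly below the vehicle (13.5% of all genes did so) and none was called. Without vehicle replicate 3 their median was -0.048. The mitochondrial ribosome had a median of -0.35 over 73 genes, which was -0.14 without that library. ATP5MC1, a subunit of ATP synthase, had 62.4 ± 1.95 CPM under everolimus against 107 ± 42.3 CPM under vehicle and a log2 fold change of -0.78 (SE 0.32, adjusted p = 0.413), and IDH3A, of the tricarboxylic acid cycle, had 33.5 ± 1.64 CPM under everolimus against 43.8 ± 6.2 CPM under vehicle and -0.39 (SE 0.17, adjusted p = 0.487). The 78 genes of the cytosolic ribosome, whose messages mTORC1 is known to control at translation, had a median of -0.14, 2 lay wholly below the vehicle, and the median turned to 0.16 without vehicle replicate 3. The 13 mitochondrially encoded genes had a median of -0.20, which turned to 0.59 without vehicle replicate 1, the library with 7.05% of its counts in these genes. PPARGC1A, the coactivator PGC-1 alpha, was below the filter, with 8 to 19 raw counts in these 6 libraries.

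Everolimus acts on the mTORC1 pathway itself. Of 45 measured members of the mTORC1 pathway 1 was called, EIF4EBP1 (0.41% of all genes were called), and the median was 0.012. MTOR had 78.8 ± 3.28 CPM under everolimus against 70.4 ± 8.2 CPM under vehicle and a log2 fold change of 0.16 (SE 0.35, adjusted p = 0.973), and FKBP1A had 152 ± 15.9 CPM under everolimus against 173 ± 31.6 CPM under vehicle and -0.19 (SE 0.22, adjusted p = 0.916). ULK1, the kinase that starts autophagy and that mTORC1 restrains, had 109.6 ± 3.45 CPM under everolimus against 63.2 ± 13 CPM under vehicle and a log2 fold change of 0.79 (SE 0.21, adjusted p = 0.0733). Its library values lay wholly above those of the vehicle, as did those of 14.2% of all genes. FLT3 had 50.8 ± 4.24 CPM under everolimus against 46.6 ± 17.2 CPM under vehicle and a log2 fold change of 0.13 (SE 0.26, adjusted p = 0.969), and MYC had 504 ± 11.8 CPM under everolimus against 476 ± 113 CPM under vehicle and 0.083 (SE 0.29, adjusted p = 0.983), and both groups overlapped for each gene.

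Among the genes that rose, the most stable were FBXO32, FRAT1 and KLHL24. FBXO32, a ubiquitin ligase of protein breakdown also called atrogin-1 and a known FOXO target, was at 13.3, 14.4 and 13.8 CPM with everolimus and at 4.46, 4.75 and 4.62 CPM with vehicle. Both groups were tight, and the log2 fold change was 1.59 with SE 0.23 and an adjusted p of 0.000188. FRAT1 (ENSG00000165879, chromosome 10, 97319271 to 97321915, plus strand), which binds the kinase GSK3, was at 33, 28.6 and 32.5 CPM against 12.7, 11.9 and 8.4 CPM, a log2 fold change of 1.51 with SE 0.22 and an adjusted p of 0.000188. KLHL24 (ENSG00000114796, chromosome 3, 183635610 to 183684519, plus strand), a substrate adaptor of cullin ubiquitin ligases, was at 30.3, 30.3 and 35.2 CPM against 13.4, 12.8 and 9.16 CPM, a log2 fold change of 1.44 with SE 0.23 and an adjusted p of 0.000573. These 3 genes, with ACAT2, HMGCS1, SCD, SQLE and ADM2, were the 8 genes called in all 6 fits with 1 library left out.

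The promoter of FRAT1 is shown for a match to TGTTTAC, the core read by forkhead factors such as FOXO, a motif that was added after the data were seen. The window is chr10:97319021-97319320, plus strand (GRCh38.p14, same limits as above), with the match in capitals.
FRAT1: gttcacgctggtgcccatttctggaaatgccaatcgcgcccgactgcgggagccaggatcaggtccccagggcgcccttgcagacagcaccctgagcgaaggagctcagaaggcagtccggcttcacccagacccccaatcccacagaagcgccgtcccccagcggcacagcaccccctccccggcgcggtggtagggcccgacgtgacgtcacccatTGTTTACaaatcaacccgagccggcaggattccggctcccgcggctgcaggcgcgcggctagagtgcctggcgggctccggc
Of the genes that rose past the threshold, 4 of the 24 with a window (16.7%) held it, FRAT1, YPEL3, HBP1 and ABHD4, and of those that fell none of 18 did. In the FOXO list it was 4 of 22 (18.2%), and among all genes tested that had a window 195 of 8943 (2.18%). The share of the FOXO list does not depend on the drug. In the 24 windows of risen genes the E-box CACGTG was found in 4 (16.7%, against 10.5% of all windows). GTCACGTG, which contains it, was found in 4 (16.7%, against 4.64%) and TGACGTCA in 3 (12.5%, against 3.37%). In the 18 windows of fallen genes they were found in 3, 0 and 2, in that order. The FRAT1 window also holds TGACGTCA, left in small letters. FBXO32 had no window in the table used.

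DUSP1, a phosphatase that switches off MAP kinases, was at 7.53, 6.92 and 5.08 CPM with everolimus and at 0.875, 1.15 and 2.57 CPM with vehicle, a log2 fold change of 2.08 (SE 0.45, adjusted p = 0.0256). Vehicle replicate 3 was its highest vehicle library and everolimus replicate 3 its lowest everolimus library, and the 2 remained apart. BMF, a BH3-only protein that promotes apoptosis, was at 79.3, 87.5 and 91.9 CPM against 24.7, 49.5 and 24.4 CPM, a log2 fold change of 1.39 (SE 0.32, adjusted p = 0.0360). It was the 1 gene called of 15 in the BCL2 family list, against 0.41% of all genes. SKIL, a repressor of TGF-beta signaling, was at 36.7, 32.9 and 37.1 CPM against 11.3, 18.2 and 12.5 CPM, a log2 fold change of 1.35 (SE 0.27, adjusted p = 0.0131). RGS16, which shortens G protein signals, was at 134, 145 and 147 CPM against 49.8, 54.6 and 63.4 CPM, a log2 fold change of 1.34 (SE 0.32, adjusted p = 0.0471). CAMK1D, a calmodulin-dependent kinase, was at 5.6, 5.45 and 6.57 CPM against 2.98, 1.69 and 1.68 CPM, a log2 fold change of 1.47 (SE 0.27, adjusted p = 0.00497). All 3 everolimus libraries of each of these genes lay above all 3 vehicle libraries, as in 14.2% of all genes. The lack of overlap was part of the rule that named them.

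CSF1R, the receptor of macrophage colony-stimulating factor, was at 87.1, 86.1 and 90.7 CPM against 27.5, 53.2 and 24.7 CPM, a log2 fold change of 1.32 (SE 0.28, adjusted p = 0.0203). It was the 1 gene called of 26 in the list of PI3K and receptor feedback, against 0.41% of all genes. Vehicle replicate 2 of CSF1R was about 2-fold above the other vehicle libraries, as it was for BMF. TLR6, a receptor for bacterial lipopeptides, was at 18, 21.5 and 18.8 CPM against 8.05, 8.8 and 4.91 CPM, a log2 fold change of 1.42 (SE 0.31, adjusted p = 0.0264), and its exons overlap the near copy TLR1, so its reads are uncertain. HBP1, a repressor of cell cycle genes, was at 36.2, 38.6 and 36.6 CPM against 17.1, 19.8 and 11.6 CPM, a log2 fold change of 1.20 (SE 0.25, adjusted p = 0.0203). YPEL3 was at 34.3, 41.6 and 32.9 CPM against 13.4, 19.2 and 11.8 CPM, a log2 fold change of 1.29 (SE 0.28, adjusted p = 0.0231). NATD1 was at 6.86, 7.11 and 8.12 CPM against 2.33, 3.51 and 0.709 CPM, a log2 fold change of 1.76 (SE 0.41, adjusted p = 0.0386), with vehicle values that ran over nearly 5-fold. The long noncoding RNA AP003774.1 had, with DUSP1, the largest fitted rise of the genes called, from 0.963, 0.478 and 0.420 CPM to 1.62, 2.11 and 4.19 CPM, on 62, 79 and 132 raw counts under everolimus and 33, 15 and 16 under vehicle. Its log2 fold change was 2.08 with SE 0.40 and an adjusted p of 0.00722, and everolimus replicate 3 was about 2-fold above the other two.

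**Figure D3:**
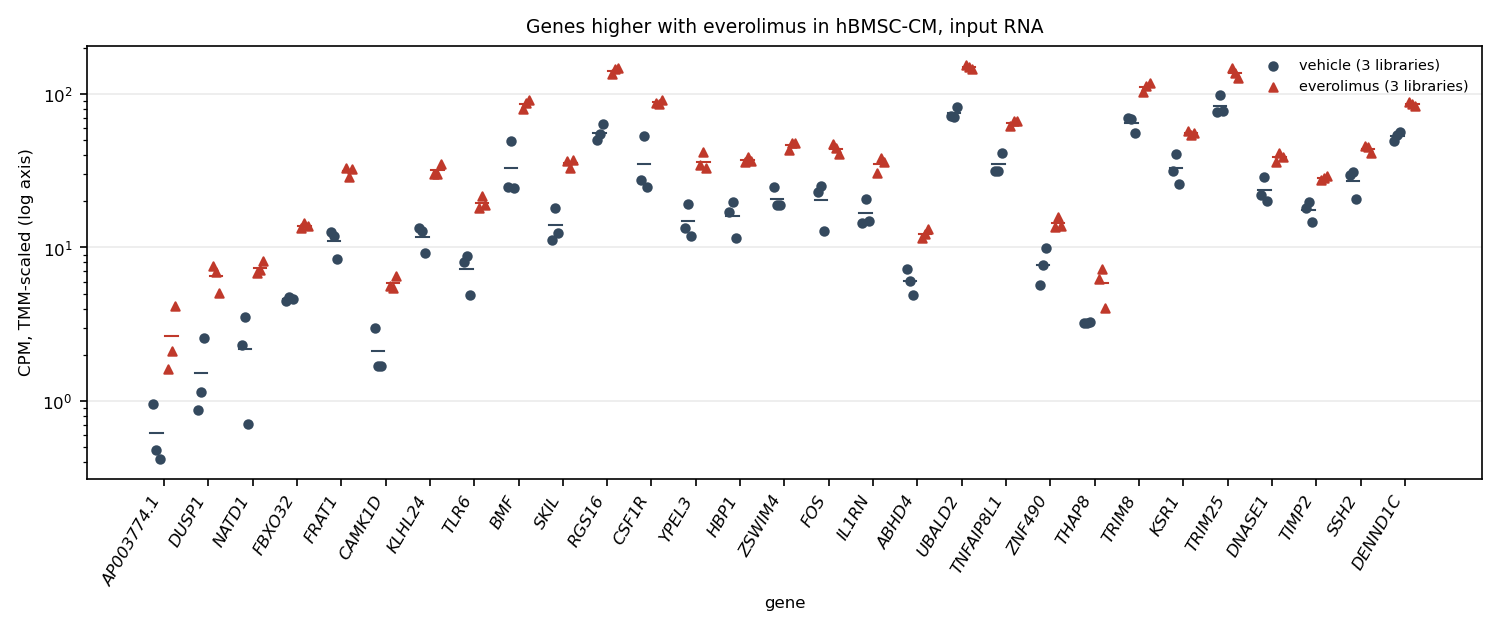
TMM-scaled CPM (vertical log axis) of the 29 genes that rose past the threshold, ordered by log2 fold change, with 3 vehicle libraries as grey circles, 3 everolimus libraries as red triangles and a line at each mean. For every gene the triangles lie above the circles, from AP003774.1 at a log2 fold change of 2.08 to DENND1C at 0.69.

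Of 25 measured FOXO targets 1 rose past the threshold, FBXO32 (0.224% of all genes rose), 20 had a positive log2 fold change, and the median was 0.43. Values of 12 members lay wholly above those of the vehicle, where 14.2% of all genes did so, and without vehicle replicate 3 those of 13 did, where 26% of all genes did so. KLF2, a factor of quiescence, had 8.57 ± 1.35 CPM under everolimus against 3.13 ± 0.618 CPM under vehicle and a log2 fold change of 1.45 (SE 0.42, adjusted p = 0.129). TXNIP, an inhibitor of thioredoxin that limits glucose uptake, was at 305, 325 and 311 CPM against 86.4, 112 and 194 CPM, a log2 fold change of 1.26 (SE 0.46, adjusted p = 0.306). PIK3IP1, an inhibitor of PI3K, had 9.85 ± 0.225 CPM under everolimus against 4.74 ± 1.78 CPM under vehicle and 1.06 (SE 0.29, adjusted p = 0.0987), and IRS2, an adaptor of the insulin receptor, had 106 ± 4.06 CPM under everolimus against 78.7 ± 12.5 CPM under vehicle and 0.43 (SE 0.28, adjusted p = 0.745). None of these 4 passed, and library values of all 4 lay above those of the vehicle.

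Of 20 measured immediate early genes, which respond within minutes to growth signals or stress, 1 rose past the threshold (0.224% of all genes did). A positive log2 fold change was found in 17, and the median was 0.44. FOS, a subunit of the factor AP-1, was at 47.3, 44.3 and 40.5 CPM with everolimus and at 23.1, 25.3 and 12.8 CPM with vehicle, a log2 fold change of 1.11 (SE 0.25, adjusted p = 0.0278). EGR2 had 2.95 ± 1.29 CPM under everolimus against 0.686 ± 0.372 CPM under vehicle and 2.10 (SE 0.70, adjusted p = 0.228), which did not pass. Of 17 STAT targets none was called, 16 had a positive log2 fold change and the median was 0.33. STAT5A had 57.6 ± 3.26 CPM under everolimus against 36.8 ± 1.53 CPM under vehicle and a log2 fold change of 0.64 (SE 0.18, adjusted p = 0.0924), and PIM1, a kinase induced by STAT5, had a log2 fold change of 0.51 (SE 0.23, adjusted p = 0.492).

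The lysosome and autophagy list, which TFEB is known to serve, had a median of 0.19 over 47 members, 38 of them positive and none called. Values of 17 lay wholly above those of the vehicle (14.2% of all genes did so). GABARAPL1, a member of the ATG8 family of autophagosomes, had 24.6 ± 0.884 CPM under everolimus against 12.5 ± 3.51 CPM under vehicle and a log2 fold change of 0.97 (SE 0.29, adjusted p = 0.133). The CLEAR element GTCACGTG, the site of TFEB, which contains the E-box CACGTG, was found in 7 of the 34 members with a promoter window (20.6%) against 4.64% of all windows. That share is a property of the list and its promoters and does not depend on the drug.

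**Figure D4:**
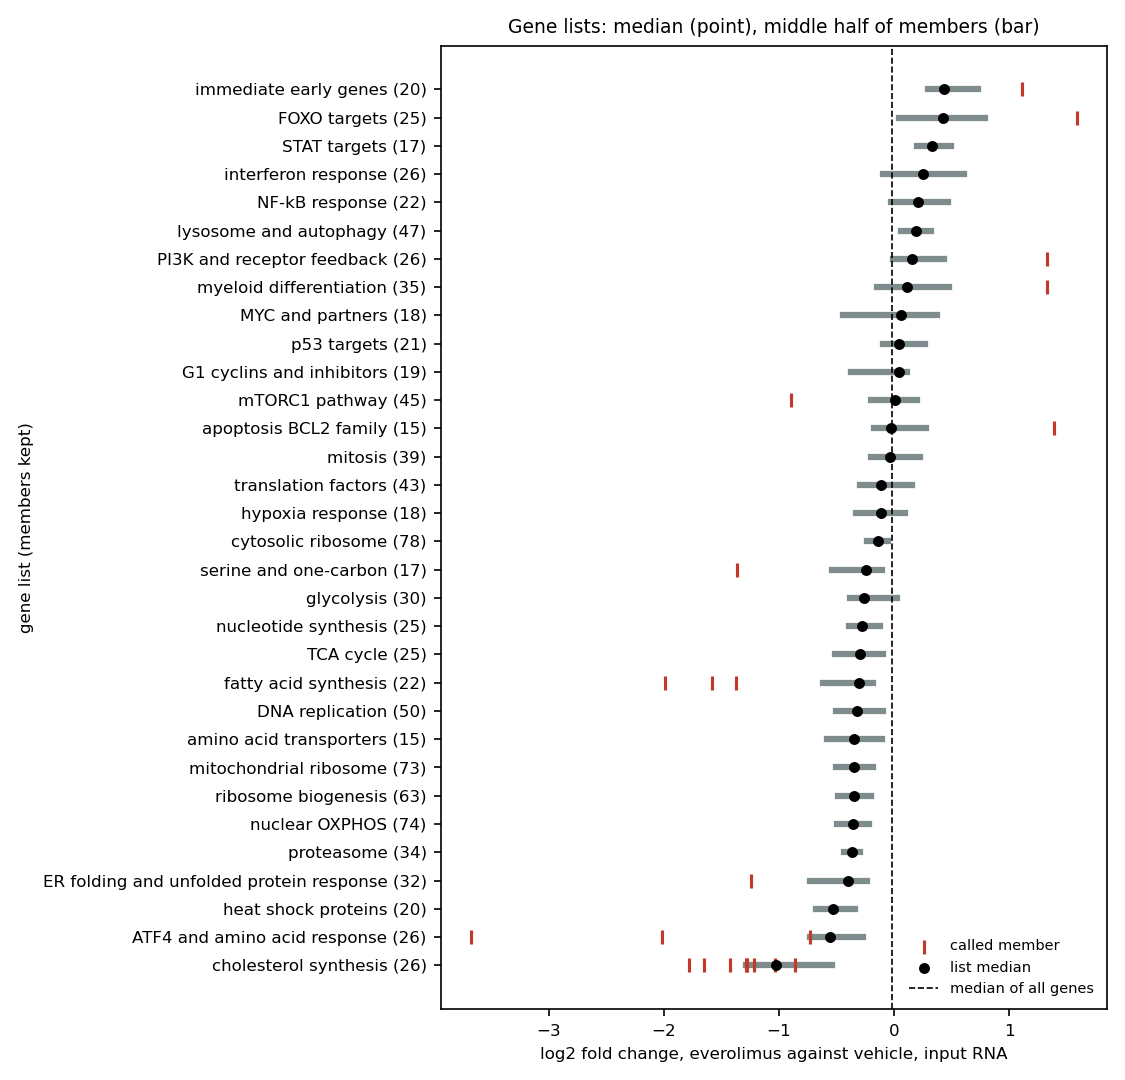
Median log2 fold change (black point) and range from the lower to the upper quartile of the members (grey bar) of each gene list with at least 15 measured members, everolimus against vehicle, with called members as red ticks and the median of all genes as a dashed line. Cholesterol synthesis lies lowest, at -1.03, and the immediate early genes lie highest, at 0.44.

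The heavy polysome RNA was taken from the same lysates, so it is no independent repeat. There 663 of 12939 genes (5.12%) were called, and of the 53 genes all 53 had the same direction, as did 8588 of the 12939, and 43 were called. HMGCS1 had a log2 fold change of -1.73 (SE 0.28, adjusted p = 0.000196) in that RNA and FBXO32 of 1.61 (SE 0.23, adjusted p = 6.67e-05). LSS had -2.17 (SE 0.34, adjusted p = 0.000171) there and KDELR2 -0.083 (SE 0.16, adjusted p = 0.821). The cytosolic ribosome list had a median of -0.55 in heavy polysomes against -0.14 in input, and the cholesterol list -1.04 against -1.03.

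The comparison of combo with quizartinib in hBMSC-CM shares no library with the one above, but it is not independent of it, since same-numbered quizartinib and vehicle libraries deviated together (correlations of 0.41 to 0.62). In that comparison 31 genes (0.24%) were called, 0 of them higher, and with the replicate number as a block, which pairs those cultures, 154 (1.19%), 12 higher and 142 lower. Of the 53 genes 48 had the same direction there (90.6%, against 65.5% of all genes), 4 were called in that direction (FKBP4, CCDC86, HSPA5 and IDI1) and 12 with the block. The change was smaller in 51 of the 53, all but HSPA5 and CCDC86, and the 53 had been chosen by their values in the first comparison. The median of the cholesterol list was -0.61, with 1 member called lower and 7 with the block, that of the ATF4 list -0.052 and that of ribosome biogenesis -0.59. In RPMI, where combo was also set against quizartinib, 34 of the 53 had the same direction (64.2%, against 53.7% of all genes).

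Several genes had values of the same direction beside quizartinib. FRAT1 was at 34.7, 31 and 35.1 CPM in the combo libraries and at 22.3, 20.9 and 12.6 CPM in the quizartinib libraries, a log2 fold change of 0.85 (SE 0.21) with an adjusted p of 0.0882, and of 0.0140 with the replicate block. IDI1 was at 19.6, 24.5 and 21.3 CPM against 31.6, 47.9 and 53 CPM, a log2 fold change of -1.02 (SE 0.23) with an adjusted p of 0.0479. HSPA5 was at 293, 544 and 348 CPM against 785, 1174 and 1006 CPM, a log2 fold change of -1.32 (SE 0.28) with an adjusted p of 0.0277. CCDC86 was at 10.7, 13.6 and 14.9 CPM against 31.5, 32.2 and 35.4 CPM, a log2 fold change of -1.34 (SE 0.21) with an adjusted p of 0.00209. FKBP4 was at 58.7, 59.5 and 68.6 CPM against 102, 108 and 116 CPM. Its log2 fold change was -0.80 (SE 0.15) with an adjusted p of 0.0132, near the -0.81 with everolimus alone.

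Others had a smaller change of the same sign, a value near 0 or one of the other sign beside quizartinib. RGS16 was at 8.72, 14.2 and 16.8 CPM in combo and at 13.9, 15.4 and 24.6 CPM in quizartinib libraries, a log2 fold change of -0.44 (SE 0.32), and the difference between the 2 everolimus changes was 1.78 (95% interval 0.86 to 2.70, unadjusted p = 0.000383, adjusted p = 1.000). CAMK1D was at 4.61, 7.89 and 5.17 CPM against 6.78, 6.15 and 4.52 CPM, 0.017 (SE 0.26), with a difference of 1.45 (95% interval 0.69 to 2.21, unadjusted p = 0.000438, adjusted p = 1.000). AP003774.1 had -0.43 (SE 0.37) there and a difference of 2.51 (95% interval 1.41 to 3.60, unadjusted p = 4.40e-05, adjusted p = 0.453). ADM2 had a smaller fall there, -0.59 (SE 0.40), and a difference of -2.13 (95% interval -3.28 to -0.99, unadjusted p = 0.000579). CHAC1 was at 0.294, 0.605 and 0.260 CPM in combo and at 0.578, 0 and 0.221 CPM in quizartinib libraries, levels too low for a fold. No difference passed the adjustment over all genes: 0 of 12939 (0%) were called by edgeR, and DESeq2 called 2. In edgeR 213 had an unadjusted p under 0.05, 26 of the 53 among them. The 53 had been chosen by the everolimus and vehicle values that also enter each difference, which favors large differences among them. Their unadjusted p-values therefore cannot be read as tests of a difference. For the cholesterol gene HMGCS1 the difference was -0.82 (95% interval -1.58 to -0.054, unadjusted p = 0.0365, adjusted p = 1.000).

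**Figure D5:**
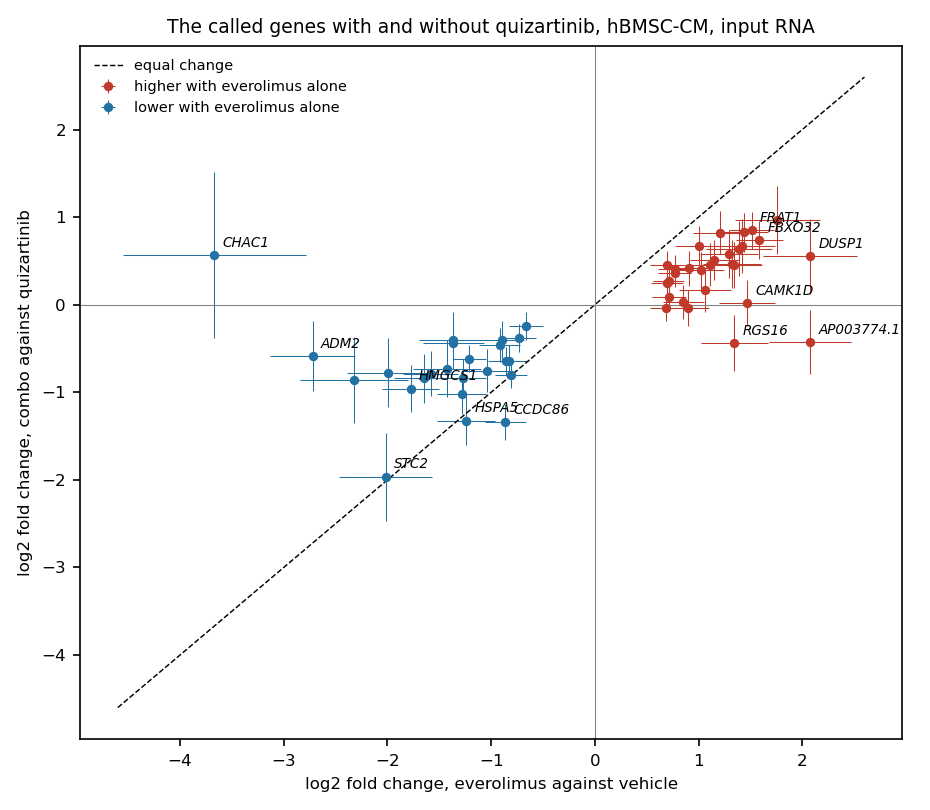
Log2 fold change of the 53 called genes with everolimus alone (horizontal axis, everolimus against vehicle) and beside quizartinib (vertical axis, combo against quizartinib), with SE bars and a dashed line of equal change. 48 genes lie in the 2 quadrants of equal sign, and FKBP4, STC2 and HSPA5 are among those on or near the line.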

How the data were processed

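Poly(A)-selected libraries (Universal Plus mRNA-seq) were read as pairs on a NovaSeq6000. The authors trimmed adapters with BBDuk, dropped short reads, and aligned and counted with STAR 2.6.0a on the Ensembl release of hg38. The deposited values are raw counts per gene, not normalized, and the strand setting is not given in the sources used here. Rows that share a gene name were summed to 57353 names. Names averaging 1 or more counts and 1 or more CPM across the 42 libraries, 12939 in all, were tested. All 42 libraries in 14 groups entered 1 quasi-likelihood fit (edgeR 4.0.16 in R 4.3.3, robust, TMM factors, no block, as the study names none). A gene was called at an adjusted p (Benjamini-Hochberg) under 0.05. CPM are TMM-scaled, except the marker sums, which are per library total. Intervals are at 95%.

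The replicate number was checked on deviations from group means (log2 CPM, prior count 2): same-numbered combo and quizartinib libraries correlated at 0.66, 0.44 and 0.65, everolimus and vehicle input libraries at -0.015, -0.000365 and -0.011. The number was therefore used as a block only for combo against quizartinib. On data simulated for the everolimus comparison with 12939 genes, 50 of 100 genes changed by 1 on the log2 scale were called. Of those changed by 2, 91 of 100 were called, as were 6 unchanged genes. The simulation gave each gene the same spread in all groups and no deviations shared by replicate number. In the data the common coefficient of variation was 0.0716 for everolimus and 0.296 for vehicle input, so these rates may not hold for this comparison.

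Genes were named by a rule: called genes of at least 2 CPM in the higher group whose values do not overlap, the 14 largest rises and 14 largest falls; a fixed set of genes; called list members and up to 4 list members with the smallest p; and called genes also called elsewhere. MVD, KDELR2, DENND1C and the examples of values beside quizartinib were chosen after their values were seen, as was the forkhead motif. The members, the gene lists and the rule were chosen with earlier results of these data known. Positions are from GENCODE v44 (GRCh38, another release than the authors'), matched by Ensembl identifier, and promoters from RefSeq, found for 8943 of the 12939 genes and 42 of the 53. Exons of 27 of the 53 overlap a gene on the other strand. Alternatives were limma voom (limma 3.58.1), DESeq2 1.42.0, other scalings, filters and samples, blocks, and each library left out.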

Additional observations from a re-analysis of the deposited data

How the results depend on the processing

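The 53 genes called with everolimus alone kept their direction under all 17 alternatives (46 of them were tested under the stricter filter), but the number called changed. Their library values did not overlap between the groups, so fits on these libraries could hardly reverse a direction, and the kept direction is no separate support. Instead of 53, limma voom called 105, DESeq2 164, no filter on low counts 96, the 21 libraries of the input fraction alone 476, the replicate number as a block 244, a replicate block within each fraction 675, and the everolimus libraries summed to 1, chosen after the data were seen, 2. With 1 library left out the range was 12 to 76. A fit on only the 6 libraries compared called 55, of which 23 were among the 53. The replicate block raised the count, but the numbers do not pair the everolimus samples with the vehicle samples, so it was not used there. In heavy polysomes, instead of 663, DESeq2 called 1039, only the groups compared 123, only the polysome libraries 138, the replicate block 1469, the block within each fraction 2620, the summed everolimus libraries 37, and the fits without 1 library 198 to 862. For combo against quizartinib, instead of 31, DESeq2 called 102, library size alone 18, no filter 80, only the groups compared 0 (1063 at an unadjusted p under 0.05), only input libraries 203, the replicate block 154, the block within each fraction 380, and fits without 1 library 1 to 52. For the difference with and without quizartinib, instead of 0, DESeq2 called 2, no filter 8 and the block within each fraction 1, and no fit without 1 library called any. With 1 library left out the log2 fold change of FLT3 ran from -0.12 to 0.41 and that of MYC from -0.011 to 0.33, both negative without vehicle replicate 3. The cause of these changes was not tested. Depth limits CHAC1, with 1 to 16 raw counts under everolimus, more than other genes called.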
